A study of Oryza sativa with 4 samples.

Results

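The cellulose synthase genes (CESA) and cellulose synthase-like genes (CSL) of rice (Oryza sativa) were followed in leaves of OsBIERF3-OE plants, which overexpress the transcription factor OsBIERF3, and of wild type (WT) plants. Genes of the platform's probe-to-gene table were taken as members where their symbol or a synonym was CESA, CSLA, CSLC, CSLD, CSLE, CSLF or CSLH followed by a number, which gave 29 of the 17905 genes with a probe set of their own. There were 9 CESA, 4 CSLA, 5 CSLC, 4 CSLD, 2 CSLE, 4 CSLF genes and 1 CSLH gene. Each was read by its brightest probe set, a group of array oligos for 1 transcript. RNA from leaves of OsBIERF3-OE plants and WT plants, both 3 weeks old and grown without stress under 14 h of light at 28 °C and 10 h of dark at 26 °C, was hybridised to 1-colour Affymetrix rice arrays, 2 arrays per genotype. The labels call the arrays biological replicates without saying whether plants were pooled, so the p-values reflect no more than the spread between these arrays, which may be partly technical. The promoter that drives OsBIERF3 and the number of transgenic lines are not given in the sources used here, and OsBIERF3's own signal was not analysed here.

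Cellulose is spun at the plasma membrane by rosette complexes in which several different CESA proteins sit side by side, each adding glucose to a growing glucan chain. In rice, CESA4, CESA7 and CESA9 are known for the thick secondary walls of vessels and fibres, and their mutants have brittle culms. CSL proteins share the glycosyltransferase fold but make other wall glycans: CSLA proteins mannan and glucomannan backbones, CSLC proteins the xyloglucan backbone (known from Arabidopsis), and CSLF and CSLH proteins the mixed-linkage glucan that is typical of grasses. CSLD proteins serve walls of dividing and tip-growing cells.

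Of the 25 members bright enough to be tested, 5 rose and 1 fell in OsBIERF3-OE leaves, and 19 did not pass. No CESA gene passed limma in either direction, and 1 of 9, CESA6, had an unadjusted p under 0.05. The rises were in the mannan synthase genes CSLA9 and CSLA1, the xyloglucan glucan synthase-type genes CSLC9 and CSLC7, and the leaf shape gene CSLD4, and the fall was in CSLE1. Calls used limma with an adjusted p of 0.05 over all 34355 probe sets tested, of which 24.2% passed, 12.4% higher and 11.8% lower. In the same fit 31.8% of 15981 genes passed, 17.2% higher and 14.5% lower, against 24.0% of the members, 20% higher and 4.0% lower, so the share of members higher was close to that of all genes. Without OsBIERF3-OE replicate 2, 3 members were higher, and after scaling by hybridization controls 9 were. The median log2 change of the tested members was 0.32, beside -0.04 for all genes tested. That member median was 0.16 without OsBIERF3-OE replicate 2 and 0.14 without WT replicate 2.

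**Figure D1:**
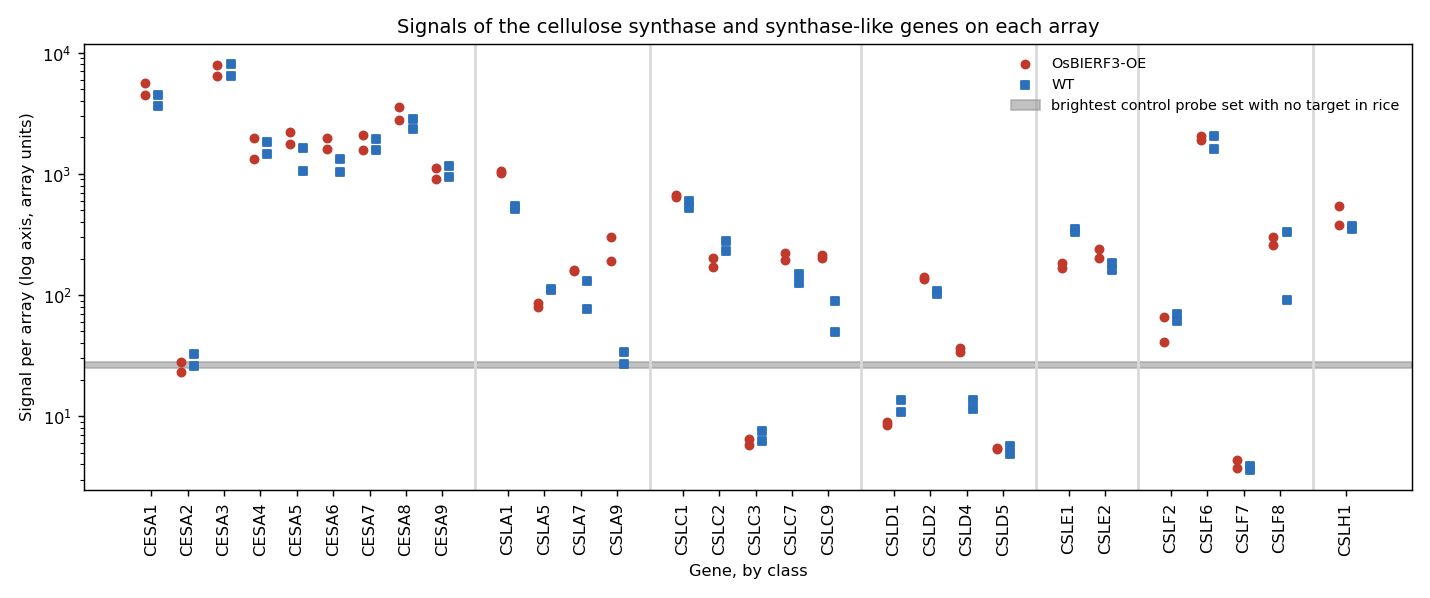
Signal on each array (log axis, array units) of the 29 members, grouped by class, with OsBIERF3-OE arrays as circles left of WT arrays as squares; the grey band is the brightest control probe set with no target in rice, 25.1 to 28.0. CSLA9, CSLC9 and CSLD4 have both OsBIERF3-OE arrays well above both WT arrays, while the arrays of the genotypes overlap for most CESA genes. Signals of different probe sets are not comparable levels.

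As facts of the whole series, the median signal was 20 and 20.3 on the OsBIERF3-OE arrays and 19.7 and 20.1 on the WT arrays, and 4273 probe sets were higher and 4058 lower in OsBIERF3-OE (7729 and 1615 after scaling each array by its hybridization controls). The green leaf markers found, 6 of 9, were above background on all arrays, with a summed signal of 50105.8 and 49031.3 in OsBIERF3-OE and 56588.1 and 56575.5 in WT. Of these 6, PSAG (log2 change -1.17) and RCA (-0.41) were called lower and none higher. Of the seed markers found, 3 of 4 were not above background on any array (GLUA2 was), and of the root markers 2 of 3 (LSI1 was). The 4 markers of xylem and sclerenchyma sought by name were not found. All 10 markers of dividing cells were higher in OsBIERF3-OE, with a summed signal of 5785.4 and 5534.8 against 435.0 and 417.7 in WT. In WT 5 of the 10 were not above background. CYCB2-2 and MCM7 were tested only through their OsBIERF3-OE signal, as their mean WT signal lay under the filter on dim probe sets. The ratio of 3′ to 5′ signal, a sign of RNA integrity, was 7.37 and 7.25 for GAPDH in OsBIERF3-OE and 12.8 and 11.2 in WT. For the 3 actin pairs its log2 value differed by -0.55 to -0.85 (OsBIERF3-OE minus WT), for ubiquitin by -0.27 and for cyclophilin, where the genotypes overlapped, by 0.04. The part of either measure in the results was not tested. In whole leaves, more cells of a type and more RNA per cell cannot be told apart.

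The CSLA genes gave the widest change among the members. CSLA9 (LOC4341571) had signals of 298.5 and 190.6 in OsBIERF3-OE leaves, against 33.8 and 27 in WT leaves. Both OsBIERF3-OE arrays were several times brighter than either WT array, and the WT signals were only just above the background of their own arrays. The difference was 7.89-fold, a log2 change of 2.98 ± 0.26 (SE; limma adjusted p = 0.00289). CSLA1 (LOC4328585), which the gene table also lists as CSLA9, had 1018 and 1050 in OsBIERF3-OE and 547.1 and 516.3 in WT. Replicates lay close together there, and the rise was 1.95-fold (log2 change 0.96 ± 0.105, SE; limma adjusted p = 0.00542).

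The remaining CSLA genes did not pass. CSLA7 (LOC4343994) had 160.4 and 157.1 in OsBIERF3-OE and 130.2 and 76.4 in WT, with the WT arrays unlike each other. Its log2 change was 0.67 (limma adjusted p = 0.134), and 1.06 without WT replicate 1, where it passed (0.0326). CSLA5 (LOC4332966) was dimmer in OsBIERF3-OE, at 85.2 and 78.9 against 110.4 and 112.3 in WT, a log2 change of -0.44 (limma adjusted p = 0.0722). For each of the 4 CSLA genes the arrays of the genotypes did not overlap, as for 73.8% of all genes tested.

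Among the CSLC genes, 2 of the 4 tested rose, beside 17.2% of all genes tested. CSLC9 (LOC4334258) had signals of 200.5 and 214.4 in OsBIERF3-OE and 89.5 and 49.7 in WT. The OsBIERF3-OE arrays were alike and both lay above the WT arrays, which differed from each other. The rise was 3.11-fold (log2 change 1.64 ± 0.293, SE; limma adjusted p = 0.0185), and it did not pass without OsBIERF3-OE replicate 2 (0.0624). CSLC7 (LOC4339283) had 195.8 and 223.1 in OsBIERF3-OE, against 149.2 and 126.1 in WT, a rise of 1.52-fold. It passed narrowly (limma adjusted p = 0.0443) and did not pass in any of the 4 fits that omit an array (limma adjusted p of 0.0735 to 0.183). Its probe set may also bind other transcripts, as its ID ends in x_at.

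CSLC2 (LOC4347118) had 169.2 and 201.1 in OsBIERF3-OE and 277.3 and 233 in WT (log2 change -0.46, limma adjusted p = 0.0965), the opposite direction to CSLC9 and CSLC7. For CSLC1 (LOC4325496) the signals were 638.5 and 667 in OsBIERF3-OE and 597 and 527.4 in WT, a log2 change of 0.22 with a 95% confidence interval of -0.08 to 0.52. CSLC3 (LOC4345095) was not above background on any array, at 5.77 to 6.44 in OsBIERF3-OE and 6.26 to 7.49 in WT, and was too dim to be tested.

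CSLD4 (LOC107276048) was the CSLD gene that rose. Rice mutants of CSLD4 have narrow, rolled leaves. It was above background on both OsBIERF3-OE arrays, at 36.6 and 33.8, and on neither WT array, at 11.4 and 13.5. The rise was therefore at least 1.38-fold, the mean log2 signal of OsBIERF3-OE against that of the background controls on the WT arrays (limma adjusted p = 0.0044). This probe set, too, has an ID ending in x_at. All 10 markers of dividing cells rose beside it, and their part in the rise of CSLD4 was not tested. CSLD2 (LOC4339895) had 135.6 and 141.7 in OsBIERF3-OE and 101.9 and 108.3 in WT, a log2 change of 0.40 (limma adjusted p = 0.0862). CSLD1 (LOC4349505), a root hair gene in rice, and CSLD5 (LOC4340943) were not above background on any array. CSLD1 lay at 8.49 to 9.03 in OsBIERF3-OE and 10.8 to 13.5 in WT, and neither was tested.

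CSLE1 (LOC4347370) was the 1 member that fell. Its signals were 183.4 and 167.7 in OsBIERF3-OE leaves and 333.6 and 352.4 in WT leaves. Replicates agreed closely in both genotypes and the groups were well apart. WT was 1.96-fold higher, a log2 change of -0.97 ± 0.126 (SE; limma adjusted p = 0.00845). CSLE2 (LOC4330583) had 202.5 and 237.8 in OsBIERF3-OE and 183.6 and 160.6 in WT and did not pass (log2 change 0.35, limma adjusted p = 0.155). Its 3 probe sets disagreed. One with signals of 58.6 and 60.9 in OsBIERF3-OE and 97.9 and 90.5 in WT was lower (log2 change -0.66, limma adjusted p = 0.0286), and another had a log2 change of -0.02. Whether the genotypes differ in CSLE2 was therefore not settled by this array.

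**Figure D2:**
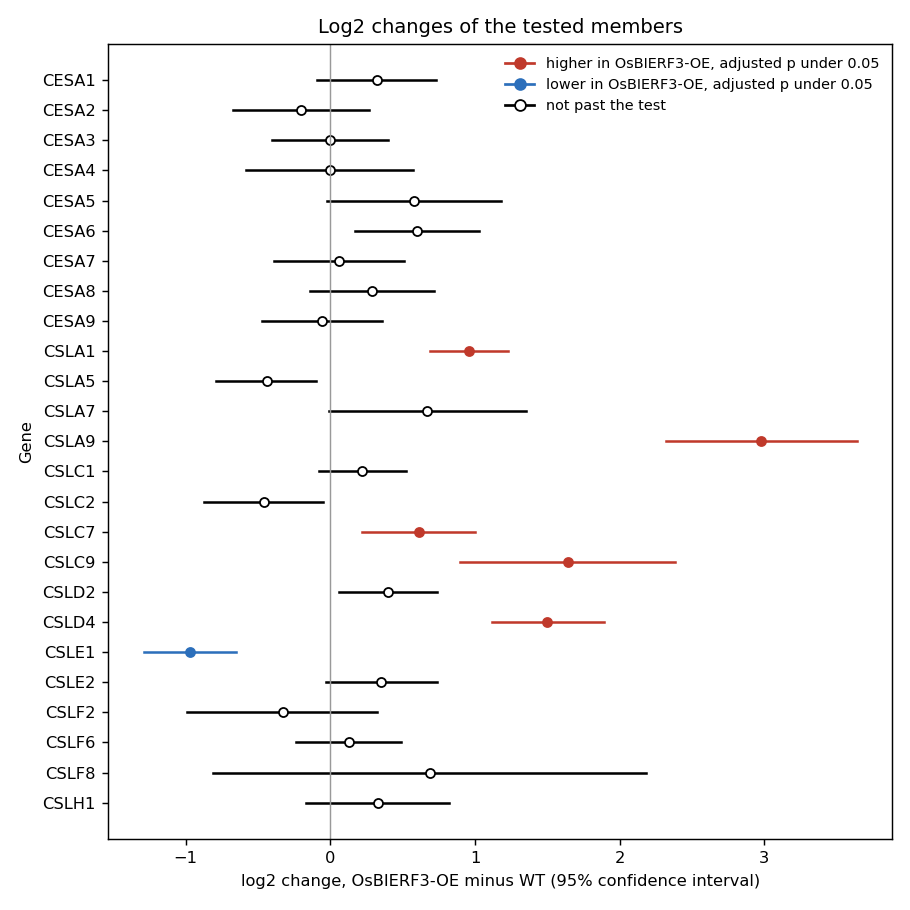
Log2 change (OsBIERF3-OE minus WT, horizontal axis) of the 25 tested members with unadjusted 95% confidence intervals; filled points passed the adjusted p of 0.05, open points did not. CSLA9, CSLC9, CSLD4, CSLA1 and CSLC7 lie to the right and CSLE1 to the left, and the 9 CESA genes lie between -0.20 and 0.60.

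Genes of mixed-linkage glucan synthesis did not pass limma, and none of the 4 tested had an unadjusted p under 0.05. CSLF6 (LOC4344719), the main gene of this glucan in rice, had 1905 and 2038 in OsBIERF3-OE and 2035 and 1598 in WT. The genotypes overlapped, and the log2 change was 0.13 with a 95% confidence interval of -0.24 to 0.49. CSLF8 (LOC4343552) had 260.3 and 300.7 in OsBIERF3-OE and 332.9 and 90.9 in WT. One WT array lay above both OsBIERF3-OE arrays and the other far below them, so that the log2 change of 0.69 was 1.62 without WT replicate 1 (limma adjusted p = 0.0134) and -0.25 without WT replicate 2 (0.438). CSLF2 (LOC4343553), separated from CSLF8 by 1 gene in the RefSeq gene order, had 40.9 and 66 in OsBIERF3-OE and 70 and 61.2 in WT. The wide gap between the WT arrays seen for CSLF8, 1.87 on the log2 scale, was 0.19 for its neighbour CSLF2. CSLF7 (LOC4348365) was not above background on any array, at 3.70 to 4.31 in OsBIERF3-OE and 3.62 to 3.89 in WT. CSLH1 (LOC4348359) had 379.2 and 545.1 in OsBIERF3-OE and 352.1 and 373.1 in WT (log2 change 0.33, limma adjusted p = 0.284).

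None of the 9 CESA genes passed, and their median log2 change was 0.06. The secondary wall genes CESA4, CESA7 and CESA9 had log2 changes of -0.06 to 0.06. CESA4 (LOC4324625) had 1332 and 1994 in OsBIERF3-OE and 1835 and 1457 in WT, CESA7 (LOC4348853) 1587 and 2077 against 1931 and 1561, and CESA9 (LOC4347093) 900.2 and 1125 against 1157 and 948.9. The genotypes overlapped for all 3. Their 95% confidence intervals of the log2 change were -0.58 to 0.57, -0.39 to 0.51 and -0.47 to 0.36, in that order, so changes within these limits could not be told from 0 with 2 arrays per genotype.

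Of the other CESA genes, CESA6 came closest to the threshold. CESA6 (LOC4342850) had 1604 and 1985 in OsBIERF3-OE and 1330 and 1046 in WT, with both OsBIERF3-OE arrays above both WT arrays. The difference was 1.51-fold (log2 change 0.60, 95% confidence interval 0.17 to 1.03; limma adjusted p = 0.0592). It passed with dim signals of other genes raised to background (limma adjusted p = 0.0382) and after scaling by hybridization controls (0.0269). CESA5 (LOC4334710) had 1774 and 2213 in OsBIERF3-OE and 1648 and 1061 in WT (log2 change 0.58, limma adjusted p = 0.137), and without WT replicate 1 it passed at 0.90 (0.0484). CESA1 (LOC4337958) had 4477 and 5603 in OsBIERF3-OE and 4470 and 3599 in WT, a log2 change of 0.32 (limma adjusted p = 0.211). The lower OsBIERF3-OE array of CESA1 was thus barely above the higher WT array.

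CESA8 (LOC4342699) had 2773 and 3586 in OsBIERF3-OE and 2852 and 2333 in WT, with overlapping genotypes and a log2 change of 0.29. CESA3 (LOC4343049) had 6481 and 7911 against 8031 and 6379 in WT, a log2 change of 0.00 with a 95% confidence interval of -0.40 to 0.40. CESA2 (LOC4334515) was near background, at 23.2 and 28 in OsBIERF3-OE, where 1 array was above it, and 32.9 and 26.1 in WT. Where a CESA gene had a second probe set, that one did not pass either. CESA1's second probe set was dim, at 25.2 and 38.7 in OsBIERF3-OE and 18.9 and 15.2 in WT (log2 change 0.88, limma adjusted p = 0.0584). The others had log2 changes of 0.10 for CESA2, 0.28 for CESA3 and 0.12 for CESA4.

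The CESA genes shared a pattern across the single arrays that did not follow genotype. All 9 were brighter on array 2 than on array 1 of OsBIERF3-OE, by 0.27 to 0.58 on the log2 scale, and brighter on array 1 than on array 2 of WT, by 0.29 to 0.64. Both gaps had these directions in 36.8% of all genes tested, and in 38.1% of those above background on all arrays, and in 5.66% both were at least as large as the smallest among the CESA genes. Of the 16 CSL genes tested, 9 had both gaps in these directions. So did all 9 genes of the xylan list described further on and 12 of 16 lignin enzyme genes. The same held for 9 of 13 genes listed under sugar nucleotide supply and 46 of the 68 other wall genes in all. The pattern was thus not particular to the CESA genes. The median gap of the CESA genes was 0.32 in OsBIERF3-OE and 0.33 in WT, against 0.00 and 0.04 for all genes. This pattern was noticed in the data and was given no test.

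**Figure D3:**
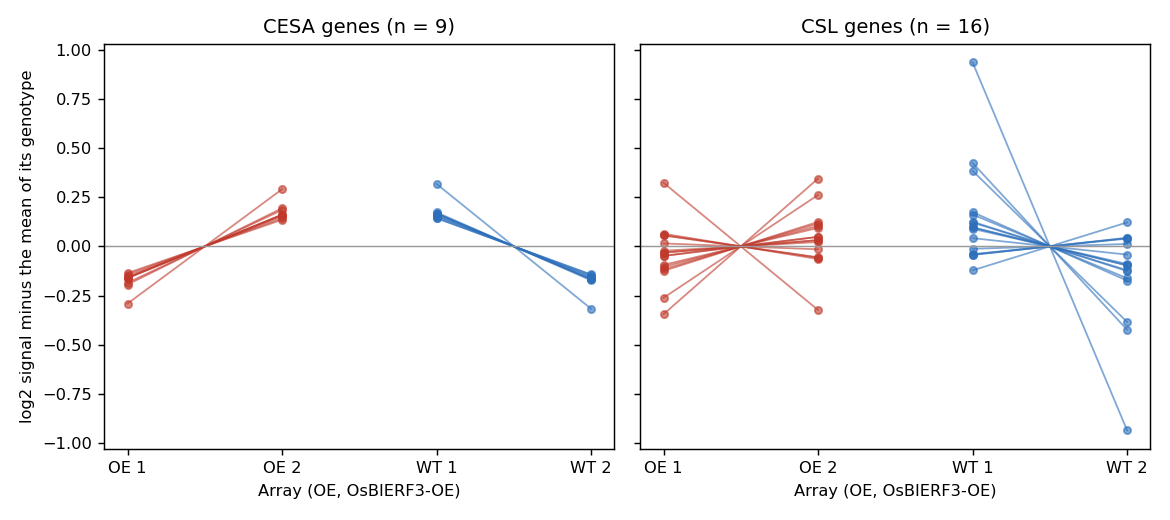
Log2 signal of each tested member on each array minus the mean of its genotype, for the 9 CESA genes (left) and 16 CSL genes (right); lines join the 2 arrays of a genotype, so the points of a pair mirror each other. All CESA lines run upward from OsBIERF3-OE array 1 to 2 and downward from WT array 1 to 2, while CSL lines run both ways.

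Other wall genes were set beside the members through lists chosen by gene name, and 20 of 68 tested genes were higher and 4 lower in OsBIERF3-OE. These shares were 29.4% and 5.88%, against 17.2% higher and 14.5% lower of all genes tested. For 4 of the 20, BC1L2, GLU8, GLU12 and CAD7, the mean WT signal lay under the filter on dim probe sets, so that they were tested only through their OsBIERF3-OE signal. Sugar nucleotide supply provides the building blocks of wall glycans, and of 13 genes listed under it by name 6 rose (46.2%). Names alone put RGP1 and RGP2 (log2 change 0.03 each, neither past the test) in this list, so it may include genes outside this supply. The sucrose synthase gene SUS4 was the 1 that fell (7.69%, log2 change -0.63). SUS1 (LOC4333062), another sucrose synthase gene, had 8154 and 9082 in OsBIERF3-OE and 4420 and 3632 in WT, a log2 change of 1.10 (limma adjusted p = 0.00639). UAM1 and UAM3, of the mutases that make the arabinofuranose donor, had log2 changes of 1.17 and 1.01. The UDP-glucose dehydrogenase genes UGD4 and UGD5 had 0.94 and 0.90. The probe set of UGD5 may also bind other transcripts, as its ID ends in x_at. The sixth, SUS3, passed although no array was above background, at 24.8 and 25.8 in OsBIERF3-OE and 12.8 and 13.5 in WT. The median log2 change of this list was 0.39.

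Of 6 genes listed as partners in cellulose deposition, 2 rose (33.3%), where 17.2% of all genes tested were higher. BC1 (LOC4333114), the COBRA-like gene whose mutant has brittle culms, had 602 and 799.5 in OsBIERF3-OE and 723.9 and 579.4 in WT and did not pass (log2 change 0.10, limma adjusted p = 0.749). BC1L2 rose at least 5.68-fold. The other rise was in LOC4347540 (log2 change 1.07), which the gene table lists as BC1 and also under the transcription factor name bHLH081. It entered this list through the name BC1, so the 2 rises may include a gene outside cellulose deposition. In the xylan list 1 of 9 genes (11.1%) rose, the arabinosyltransferase gene XAT2 (LOC4329205). It had 196 and 220.6 in OsBIERF3-OE against 82.6 and 79.4 in WT (limma adjusted p = 0.00443). The backbone genes IRX9L and IRX14 did not pass, with log2 changes of -0.27 and -0.24.

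Wall remodelling genes, mostly expansins and endoglucanases, had 10 rises (41.7%) and 0 falls by limma among 24 tested of 37. Of all genes tested 17.2% were higher and 14.5% lower. In this list 1 gene, EXPB2, was lower at limma's unadjusted p under 0.05 (log2 change -0.56). The 10 rises include GLU8 and GLU12. The largest fitted changes were in EXPB17 and GLU13, with log2 changes of 3.03 and 3.04, and in GLU8. GLU8 was not above background in WT and rose at least 3.12-fold. For GLU13 the WT arrays were unlike each other, at 146.5 and 51.2, and the 95% confidence interval of its log2 change was 1.78 to 4.31. Lignin enzymes had 1 rise (6.25%) and 3 falls (18.8%) among 16. 4CL5 (LOC4345717), a 4-coumarate ligase gene, was not above background in OsBIERF3-OE, at 24.3 and 26, against 66.6 and 51.4 in WT, and was at least 2.14-fold lower. 4CL2 had a log2 change of -1.24. CAD7, the 1 rise, was above background on 1 of the 2 OsBIERF3-OE arrays only, at 20 and 40.8, against 9.72 and 8.81 in WT. No gene matched the names listed for secondary wall regulators, so these were not analysed here. The part of the markers of dividing cells in the rises among the wall genes was not tested, and CESA genes were not tested against these lists.

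**Figure D4:**
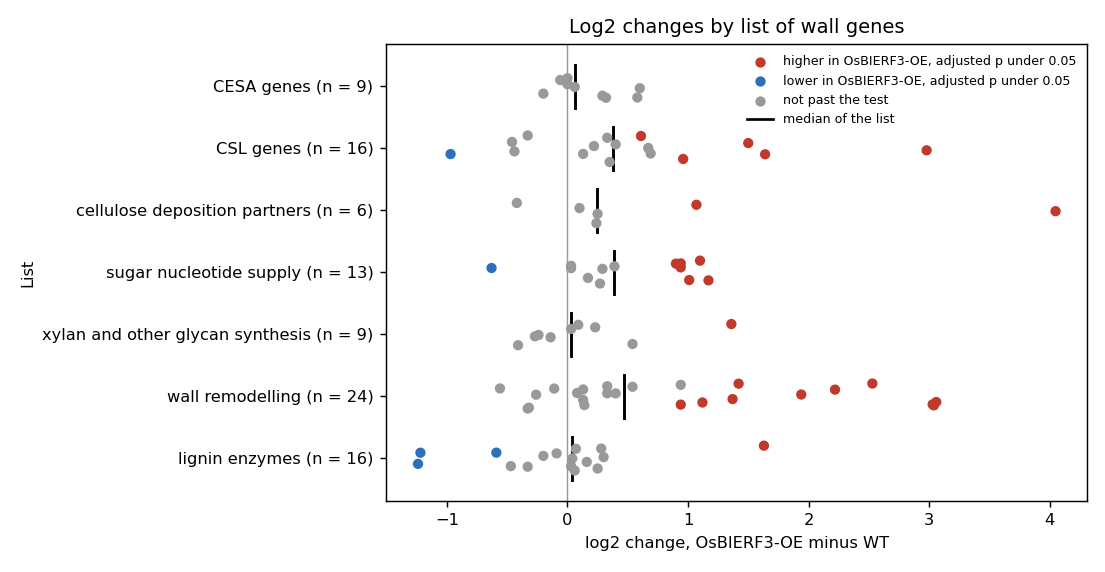
Log2 change (OsBIERF3-OE minus WT, horizontal axis) of each tested gene by list; bars mark the medians, 0.06 for the CESA genes, 0.38 for the CSL genes, 0.39 for sugar nucleotide supply and 0.47 for wall remodelling. No CESA point is coloured as past the test; fitted changes of genes near background in 1 genotype, such as BC1L2, are not bounds.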

How the data were processed

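The authors deposited linear signal intensity for each probe set, read from biotin-tagged cRNA on 1-colour arrays, per the labels' protocols. The submitters' processing notes name MAS5 and no other tool, and how arrays were normalized is not stated there. The sorted log2 signals of the arrays differed from their common mean by at most 0.0803, so the deposited arrays share almost the same distribution. Signals under 1 were set to 1 before log2 was taken. Without the 123 control probe sets, the brightest 60% by mean log2 signal, 34355 probe sets (mean signal from 12.3), entered limma's test (version 3.58.1, R 4.3.3; eBayes with trend, Benjamini-Hochberg adjustment). The design was genotype alone, with 5.28 total degrees of freedom. The code was tested on simulated data. Python 3.11.15 and pandas 2.3.3 joined the tables.

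Gene names came from the platform annotation, updated by gene ID to the RefSeq table of assembly GCF_034140825.1, and 22436 probe sets had 1 gene. All 29 members had 1 or more probe sets of their own. Background on an array was its brightest signal among 33 controls that match no rice transcript. The members and lists were chosen with earlier results of these data known. Every member is named; of each other list up to 3 genes past the test with the largest change were to be named, or the gene with the smallest p, and further genes were chosen after their values were seen. Precision is limited by the number of arrays. Alternatives were other normalizations, filters, offsets, probe set choices, a replicate block and leaving out each array. Sequences were not used here.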

Additional observations from a re-analysis of the deposited data

How the results depend on the processing

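The 25 tested members were recomputed under up to 15 alternatives (13 for CSLD4, 14 for CESA2, CESA3, CSLC7, CSLE1 and CSLH1), 1 of them, the crossed replicate block, chosen after seeing the data. No called member changed direction. Of those that did not pass, hybridization control scaling turned the sign of CESA2 (0.09), CESA4 (0.28) and CESA9 (0.23), and other probe set choices those of CSLE2 (-0.11 and -0.02) and CESA4 (0.06). Leaving out an array turned CESA3 (-0.14 and -0.17), CESA4 (0.29 and 0.16), both at 0.00 with all arrays, CESA7 (-0.13 and -0.09), CESA9 (0.10 and 0.09), CSLF2 (0.01), CSLF6 (-0.05) and CSLF8 (-0.25). Of the 6 called members, CSLA1, CSLA9, CSLD4 and CSLE1 passed under every alternative that read them. Their log2 changes were 0.92 to 1.25, 2.46 to 3.3, 0.46 to 1.79 and -1.03 to -0.68, in that order. Each had 1 probe set, so averaging probe sets could not move its log2 change. Quantile normalization could move little either, as the deposited arrays already shared almost the same distribution. CSLC9 did not pass without OsBIERF3-OE replicate 2, nor CSLC7 when any array was left out, with no filter on dim probe sets (limma adjusted p = 0.0567) or with the replicate block (0.117).

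With arrays scaled on 27 hybridization controls, 9 members were higher, 7729 probe sets were higher and 1615 lower, 2 other wall genes were lower, and the members' median log2 change was 0.61. That scaling moved the median of all genes to 0.24, so the members' median relative to all genes stayed at 0.36. With probe sets whose IDs carry no suffix for shared or variant transcripts, 3 members were higher and 0 lower, because CSLC7, CSLD4 and CSLE1 have no such probe set. By limma's unadjusted p under 0.05, 2 of the members so read, CSLA5 and CSLC2, were lower. Raising dim signals to background gave 7 other wall genes lower.

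The replicate block gave 4540 probe sets called, 2665 higher and 1875 lower, with 2 other wall genes lower. Same-numbered arrays deviated in opposite directions (r = -0.249 over probe sets, a description), and with the numbers crossed 6549 probe sets were lower, 9 members higher, 4 of them CESA genes (CESA1, CESA5, CESA6 and CESA8), and 2 lower, and 8 other wall genes lower. The numbers do not pair the samples by any label.

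Leaving out 1 array gave 3270 to 6171 probe sets called, 2111 to 2903 higher and 1159 to 3268 lower. The members higher were 3 to 7, the median log2 change of all tested members 0.14 to 0.47, and the other wall genes lower 2 to 3.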
